A study of Mus musculus with 2 samples.

Results

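In mouse ureter explants, 8 genes on the array were followed. They were the R-spondin ligands Rspo1, Rspo2, Rspo3 and Rspo4, their receptors Lgr4, Lgr5 and Lgr6, and Tnfrsf19, which encodes the receptor TROY. TROY belongs to another receptor family, named below. The 8 genes were chosen by name, as every probe annotated with one of these symbols. This gave 11 of the 39429 biological probes and 8 of 29875 gene names. Ureters of wildtype NMRI embryos at E12.5, of undetermined sex, had been kept in culture for 18 h. The medium of one arm held 10 µM BIO, and that of the control arm held its solvent DMSO at 2 parts per 1000 parts. BIO (6-bromoindirubin-3-oxime) blocks the kinase GSK3, and this block is a common way to switch on the canonical WNT pathway. Whole explants do not show in which of their cells this happened. The medium was serum-free, each RNA came from pooled ureters, and no cell type of the ureter was separated from the others. Each of 2 arrays compared 1 control RNA with 1 BIO RNA. In replicate 1 the BIO RNA carried AlexaFluor647 (red channel) and the control RNA AlexaFluor555 (green channel), and in replicate 2 the dyes were exchanged.

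R-spondins are secreted proteins that strengthen WNT signals. They bind LGR4, LGR5 or LGR6 together with the membrane ubiquitin ligases ZNRF3 and RNF43, which otherwise remove Frizzled receptors from the cell surface. Lgr5 and Tnfrsf19 are themselves targets of canonical WNT signaling and mark stem cells of the intestinal crypt, while Lgr4 is expressed more widely.

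The part of the array that reported on each gene is shown first, since all values below rest on these probes. Each probe is 60 bases long, and its bases 31 to 60 are given 5′ to 3′ for the tested probes. Capitals mark the hexamer AATAAA, the common signal for mRNA 3′ end formation, which 12.6% of all biological probes held somewhere in their length.
Rspo1: ggaaactgcttaaaggtttatttcaaatta
Rspo2: ttggcaggttctaattgcattatttccctg
Rspo3: taggagagaaagccaccacAATAAAtatat
Lgr4: tctatcattctgattatacaggaagcacac
Lgr5: ccagaatttgcttttctactgggctcaaaa
Tnfrsf19: tactctaaagagtgctgctgtctgtgttag
Tnfrsf19, 2nd probe: cctgaatctagccatgcccacagccttcca
No other probe of the array shared a run of 20 bases with any probe of these genes on either strand. The positions below are those the array's design gives on the mouse build mm9. No annotation of that build was used, so exons and UTRs are not assigned.

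Of the 8 genes, 6 were measured well enough to be tested. BIO-treated ureters had more RNA of the receptors Tnfrsf19 and Lgr5, and less of the ligands Rspo3 and Rspo2. The mean log2 ratios of BIO over control ran from 3.21 for Tnfrsf19 to −1.12 for Rspo3. Lgr4 and Rspo1 did not pass the test, and Rspo4 and Lgr6 were near the background. The test was limma's moderated test of the ratio against 0, with Benjamini-Hochberg adjustment over 28824 probes and a threshold of 0.05. By it 2 of 6 tested members rose, where 9.13% of all 21574 tested genes did, and 2 of 6 fell, where 14.8% did. In either direction 23.9% of all genes passed, 5154 in number. The count of members that fell was 1 with processed signals, 1 with median centring and 0 with the deposited score table, where 1923, 2766 and 3248 genes passed in all. The 2 members that rose did so in all 3. In whole explants, fewer cells of a type and less RNA per cell cannot be told apart.

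**Figure D1:**
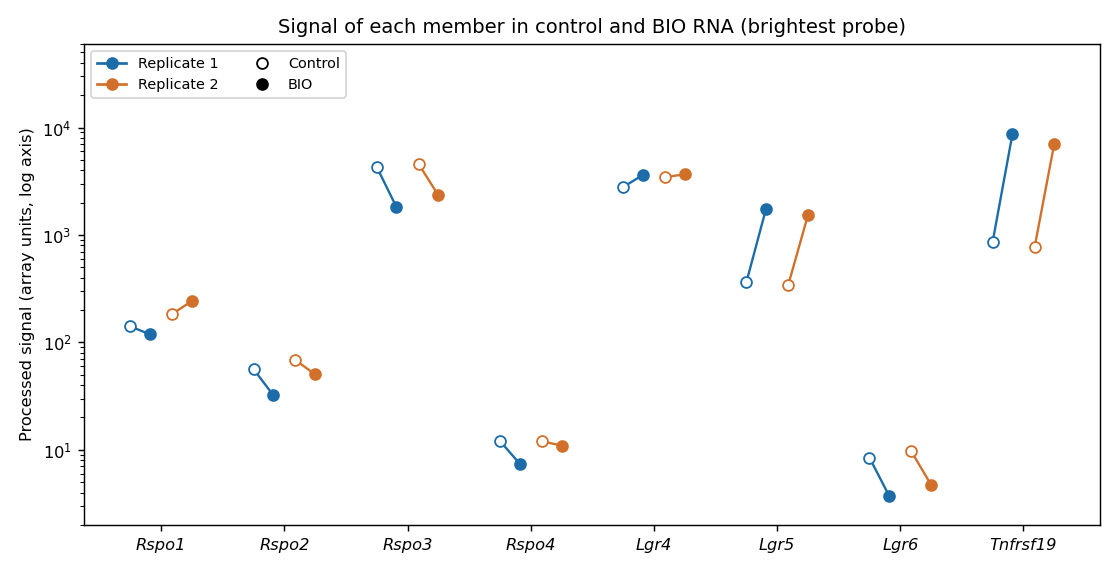
Processed signal (array units, log axis) of the brightest probe of each of the 8 genes, with control RNA as open and BIO RNA as filled circles, joined within replicate 1 (blue) and replicate 2 (orange). Both BIO signals of Tnfrsf19 and Lgr5 lie above both controls and both of Rspo3 and Rspo2 below them, while Rspo1 runs in opposite directions; heights of different genes come from different probes and cannot be compared.

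Tnfrsf19 is an orphan receptor of the tumour necrosis factor (TNF) receptor superfamily. Its brighter probe (NM_013869) lies at chr14:61582873-61582932 on the minus strand. Its processed signal, the background-subtracted and dye-normalized brightness in array units, was 865 in control and 8629 in BIO RNA of replicate 1. In replicate 2 it was 766 in control and 7059.7 in BIO RNA. Both BIO signals were thus many times above both controls, by 9.97-fold in replicate 1 and 9.22-fold in replicate 2. The log2 ratios were 3.26 and 3.15, with a mean of 3.21 ± 0.11 (moderated SE, n = 2 arrays; limma adjusted p = 1.42e-05). The spots of the probe lay between 3.21 and 3.32 on the array of replicate 1 and between 3.11 and 3.20 on that of replicate 2. This was the largest mean log2 rise among the 21574 tested genes in this fit.

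A second probe for the same transcript, at chr14:61589667-61589726, starts 6794 bases from the first. Its signal went from 43.3 to 338 in replicate 1 and from 36.0 to 229 in replicate 2. Control RNA was much dimmer on this probe, but it too was well above background in all 4 measurements. Its log2 ratios of 2.35 and 1.95 gave a mean of 2.15 ± 0.13 (moderated SE, n = 2; limma adjusted p = 4.75e-05). Both probes of Tnfrsf19 rose, the second by the smaller log2 value. With an offset of 16 in place of 50 intensity units added before the log, the second probe gave 2.41 and with the processed signals 2.82, and it was called in both. With the deposited score table it gave 2.83 and was not called (limma adjusted p = 0.0563).

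Lgr5 encodes the R-spondin receptor named as the stem cell marker above. Its probe (NM_010195) lies at chr10:114887403-114887462 on the minus strand. The signal rose from 361 in control to 1751 in BIO RNA of replicate 1, and from 341 to 1523 in replicate 2. Control values of the replicates were close to each other and far below both BIO values, with 4.85- and 4.46-fold differences. The log2 ratios of 2.13 and 2.05 averaged 2.09 ± 0.11 (moderated SE, n = 2; limma adjusted p = 3.18e-05), with a moderated 95% interval from 1.84 to 2.34. This rise ranked 14 from the top among 21574 genes. A second Lgr5 probe (ENSMUST00000105272) at chr10:114900686-114900745, with a start 13283 bases away, was not well above background in any channel, at 5.30 and 13.1 in replicate 1 and 4.96 and 7.23 in replicate 2. It was not tested and says nothing about the direction.

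Lgr4, the more widely expressed receptor, was measured at chr2:109853567-109853626 on the plus strand (NM_172671). Its signal was 2796 in control and 3617 in BIO RNA of replicate 1, and 3463 and 3663 in replicate 2. Both BIO values were above both controls, but the step in replicate 2 was small. The log2 ratios of 0.35 and 0.07 averaged 0.21 ± 0.12 (moderated SE, n = 2), which did not pass the test (limma adjusted p = 0.245). The moderated 95% interval of the mean reached from −0.06 to 0.48, so it covered no change as well as a modest rise.

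Lgr6, the third receptor of the family, was near the limit of detection. Its brighter probe (ENSMUST00000044828, chr1:136880538-136880597) read 8.43 in control and 3.72 in BIO RNA of replicate 1, and 9.67 and 4.72 in replicate 2. Control RNA was well above background on 1 of 2 arrays and BIO RNA on 0 of 2, so the probe was not tested. The other probe (NM_001033409, chr1:136883782-136883841) was not well above background in any channel, at 5.45 and 2.76 in replicate 1 and 3.54 and 5.93 in replicate 2.

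**Figure D2:**
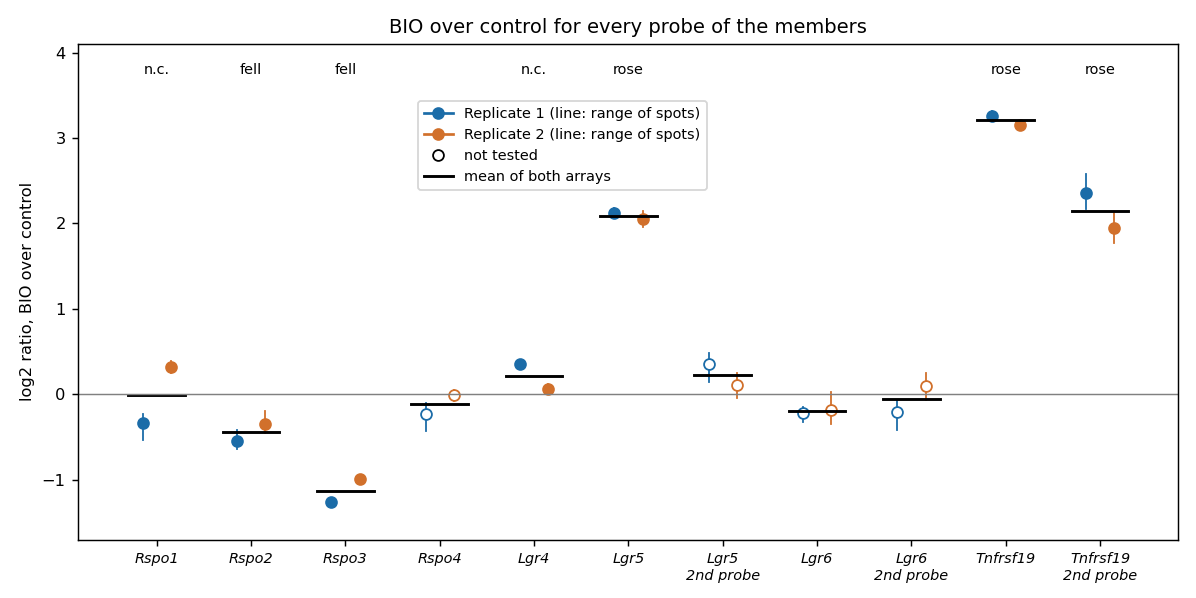
Log2 ratio of BIO over control for all 11 probes, as the mean of the spots on the array of replicate 1 (blue) and replicate 2 (orange) with a line over the range of spots and a black bar at the mean of both arrays; open circles are probes not tested and n.c. means tested and not called. Both Tnfrsf19 probes and the brighter Lgr5 probe stand above 1.9 on both arrays, Rspo3 lies near −1, and the Rspo1 circles lie on opposite sides of 0.

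Among the ligands, Rspo3 showed the clearest difference. Its probe (NM_028351) lies at chr10:29172930-29172989 on the minus strand and is the only tested one of the set with AATAAA in the bases shown. Its signal fell from 4292 in control to 1816 in BIO RNA of replicate 1, and from 4577 to 2340.0 in replicate 2. Both BIO signals lay below both controls, 2.36- and 1.96-fold lower than their own control. The log2 ratios of −1.25 and −0.995 averaged −1.12 ± 0.12 (moderated SE, n = 2; limma adjusted p = 0.000410). Only 2.17% of the tested genes had a lower mean ratio. With the deposited score table the ratio was −1.13 and did not pass (limma adjusted p = 0.126).

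Rspo2 was dimmer, with a probe (NM_172815) at chr15:42852727-42852786 on the minus strand. It read 56.3 in control and 32.2 in BIO RNA of replicate 1, and 68.4 and 50.3 in replicate 2. Here too both BIO values were below both controls, by 1.75- and 1.36-fold within the arrays. The mean log2 ratio was −0.44 ± 0.11 (moderated SE, n = 2), with −0.54 and −0.35 on the arrays (limma adjusted p = 0.0247). The call was lost with the processed signals (−0.62, limma adjusted p = 0.0803), with median centring in place of loess (−0.50, limma adjusted p = 0.116) and with the deposited score table (−0.61, limma adjusted p = 0.282). All of these kept the sign, as shown in the plot of other processing settings.

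Rspo1 had no common direction. Its probe (NM_138683, chr4:124686270-124686329, plus strand) read 141 in control and 119 in BIO RNA of replicate 1, and 184.5 and 243 in replicate 2. The log2 ratios of −0.33 and 0.32 averaged −0.01 ± 0.16 (moderated SE, n = 2; limma adjusted p = 0.978), with a moderated 95% interval from −0.37 to 0.35. The 2 arrays lay 0.65 log2 units apart. The spots did not bridge this gap: they lay between −0.54 and −0.23 on one array and between 0.25 and 0.39 on the other. On both arrays the AlexaFluor555 channel was the brighter, whichever RNA it held. The part of the dye in this was not tested.

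Rspo4 was near the background. Its probe (NM_001040689, chr2:151700345-151700404, plus strand) gave 12.1 in control and 7.43 in BIO RNA of replicate 1, and 12.0 and 11.0 in replicate 2. Each RNA was well above background on 1 of 2 arrays, and the probe was not tested.

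Since a probe's brightness depends on its sequence, levels were not compared between ligands or between receptors. A rule without a test, at least 2-fold in one direction on both arrays with the brighter channel at 100 or more, took 225 genes as higher (1.04% of those tested) and 440 as lower (2.04%). Tnfrsf19 and Lgr5 were among the higher ones. None of the 8 genes was among the lower ones, Rspo3 lying just under the fold limit in replicate 2.

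**Figure D3:**
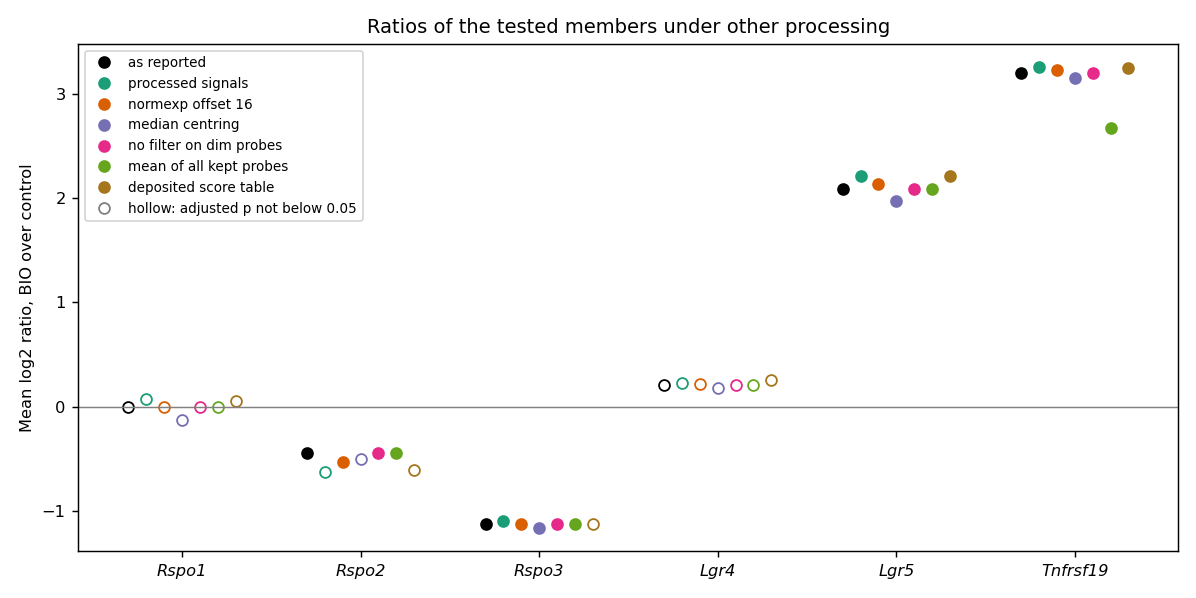
Mean log2 ratio of BIO over control for the 6 tested genes as reported (black) and under 6 other ways of processing the same arrays (colours), hollow where the limma adjusted p was not below 0.05. Tnfrsf19 (2.68 to 3.26 under the alternatives) and Lgr5 (1.97 to 2.22) were called in all of them, Rspo3 lost its call with the score table, Rspo2 in 3 of 6, and Rspo1 and Lgr4 were never called.

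The genes whose ratios lay nearest on both arrays were looked up for the members with a mean log2 ratio beyond 1 in size, by Euclidean distance over the 2 arrays. For Tnfrsf19 they were Mybpc1 at a distance of 0.13, Notumos at 0.33 and Gm3289 at 0.48 log2 units. For Lgr5 they were Higd1c at 0.09, Methig1 at 0.10 and Axin2 at 0.14, the last a feedback inhibitor of canonical WNT signaling. Rspo3, in a far denser range of ratios, had A530058N18Rik, Arhgef26 and Rnf152 at 0.01 log2 units each.

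All 6 canonical WNT targets on the list rose and passed the test, where 9.13% of all tested genes rose. Their median was 1.35 on the log2 scale beside −0.01 over all tested genes. The list was short and chosen with earlier results of these data known, so it does not speak for WNT-responsive genes in general. Sp5, a WNT-induced transcription factor, had a mean log2 ratio of 2.80 and Axin2 2.15. Tcf7 and Lef1, the nuclear partners of β-catenin, had 1.38 and 1.07. Nkd1, an inhibitor of the pathway, had 1.32, and Notum, an enzyme that inactivates WNT proteins, 1.08. Of these 6 genes, 2 passed with the deposited score table.

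The list of membrane ubiquitin ligases and WNT receptors held genes that moved in both directions. Of 14 transmembrane ubiquitin ligases and WNT receptors, all tested, 3 rose and 3 fell, where 9.13% and 14.8% of all tested genes did. Their median log2 ratio was 0.05. Both ligases rose: Rnf43 by 0.81 ± 0.11 (moderated SE, n = 2; limma adjusted p = 0.00156), from 2565 to 4422 and from 2517 to 4629 in processed signal, and Znrf3 by 0.53 ± 0.15 (limma adjusted p = 0.0327). The arrays differed for Znrf3, with log2 ratios of 0.82 and 0.25, both above 0. Its probe was dim, at 28.4 and 32.3 in control and 71.4 and 46.3 in BIO RNA. Among the Frizzled receptors, Fzd10 rose by 1.53 ± 0.11, with 1419 and 1146 in control and 4413 and 3350.1 in BIO RNA. Fzd4, which also binds Norrin, had a mean log2 ratio of −1.18, Fzd6 of −0.87 and Fzd8 of −0.60, all 3 past the threshold. The other Frizzled genes and the coreceptors Lrp5 and Lrp6 were not called. Of the 14 genes, 4 passed with the processed signals, 5 with median centring and 4 with the score table.

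Among 4 other binding partners of R-spondins or LGR4, 3 fell, where 14.8% of all tested genes did, with a median of −0.53. Iqgap1, a scaffold protein reported to bind LGR4, had a mean log2 ratio of −0.77, and Sdc4, a syndecan that binds R-spondins, of −0.54. Ndp, which encodes the LGR4 and Fzd4 ligand Norrin, had −0.51. Tnfsf11 (RANKL), at −0.34, did not pass, and its BIO signals were not well above background on either array. None of the 4 passed with the processed signals or the score table.

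**Figure D4:**
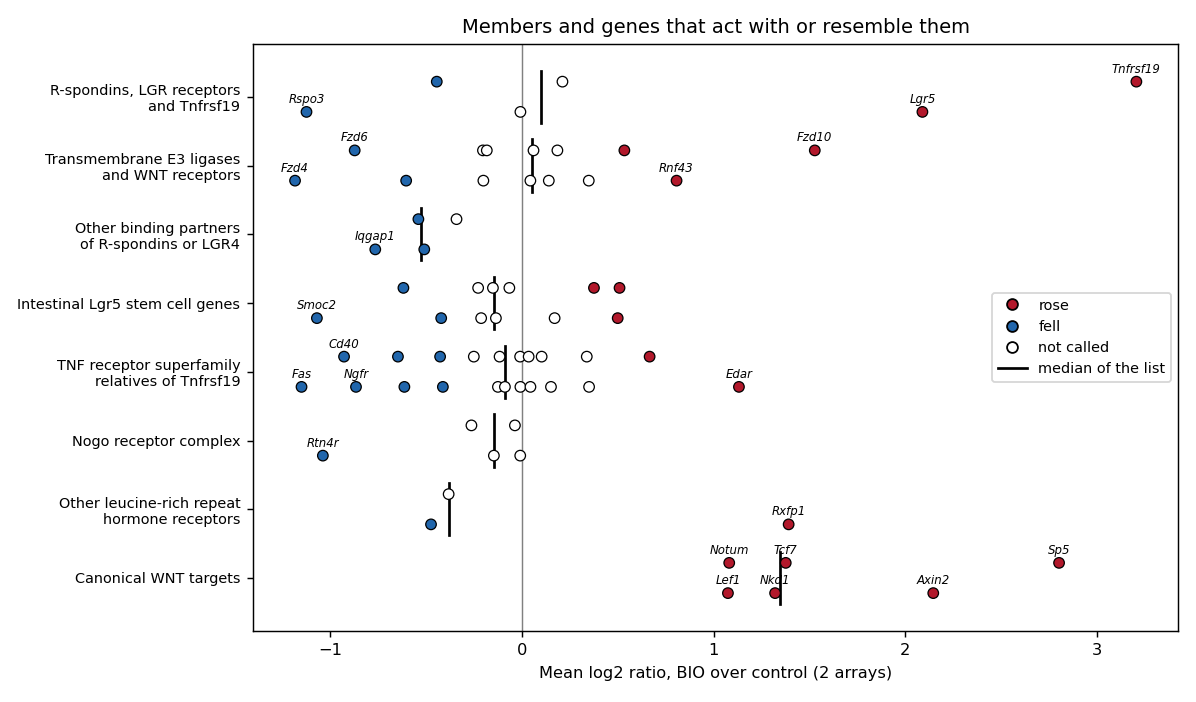
Mean log2 ratio of BIO over control (2 arrays) for the 6 tested members and for the tested genes of 7 lists of genes that act with or resemble them, coloured by call, with a black line at each list's median. The 6 WNT targets all lie above 1, while the members, like the receptors and ligases, spread to both sides of 0.

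Genes that share expression with Lgr5 in intestinal stem cells moved in both directions. Of 13 such genes 12 were tested, and 3 rose and 3 fell, where 9.13% and 14.8% of all tested genes did. Their median log2 ratio was −0.14. The rises were small, at 0.51 for Cdca7, 0.50 for Prom1, a stem cell surface protein, and 0.38 for the chromatin regulator Bmi1. Smoc2, a secreted matrix protein, had −1.07, with control signals of 13370.0 and 15166 and BIO signals of 5834 and 8285. Cd44, the hyaluronan receptor, had −0.62, and Ascl2, a transcription factor of crypt stem cells, −0.42. Olfm4 was near the background. With the processed signals 1 of the 12 passed, 2 with median centring, and 1 with the score table.

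Among 24 TNF receptor superfamily relatives of Tnfrsf19, 21 were tested, with a median log2 ratio of −0.09. Of these, 2 rose and 7 fell, where 9.13% and 14.8% of all tested genes did. Edar, the ectodysplasin receptor, rose (mean log2 ratio 1.13, limma adjusted p = 0.00145). Its control RNA was not well above background on either array, so that the difference is a bound, at least 1.86-fold higher with BIO. Tnfrsf13c, which encodes a TNF-family receptor found on B cells, also rose, by 0.67, with control RNA well above background on 1 of 2 arrays. The lowest ratios belonged to the death receptor Fas (−1.15), the costimulatory receptor Cd40 (−0.93) and Ngfr (−0.87), the neurotrophin receptor that, like TROY, can pair with the Nogo receptor. Of these genes, 4 passed with the processed signals and 2 with the score table.

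TROY is known in neurons as a partner of the Nogo receptor and Lingo1. Of the 5 genes of this complex, all tested, 0 rose and 1 fell, where 9.13% and 14.8% of all tested genes did. The gene that fell was the Nogo receptor gene Rtn4r, by 1.04 ± 0.11 on the log2 scale (limma adjusted p = 0.000409). Its signal went from 370.1 to 179.8 and from 478 to 229.8. The ligand genes Omg (−0.26), Rtn4 (−0.15) and Mag (−0.04) and the coreceptor gene Lingo1 (−0.01) were not called. Of 5 other leucine-rich repeat hormone receptors, the relatives of the LGR proteins, 3 were tested. Of these, 1 rose and 1 fell, beside the shares of 9.13% and 14.8% over all tested genes. With the processed signals 1 of the 3 passed, 1 with median centring, and 0 with the score table. Rxfp1, the relaxin receptor, rose by 1.39 ± 0.15, from 135 to 519 and from 296 to 681. Rxfp2 had −0.47 and was called as lower, while Tshr (−0.38) was not called, and both were well above background with BIO on only 1 of 2 arrays.

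Markers of the cell types in the explant were read on the same arrays beside the falls of Rspo3 and Rspo2. Over all tested genes 14.8% fell and 9.13% rose, and the counts that follow are to be read beside these shares. Of 11 markers of ureteric mesenchyme and smooth muscle precursors, 7 fell and 0 rose, with a median log2 ratio of −0.51. Their summed processed signal was 258435 in control and 156575 in BIO RNA of replicate 1, and 274733 and 179929 in replicate 2. Pdgfrb (−2.17) and Acta2 (−1.63) had the lowest ratios, while Tbx18 (−0.22), a defining gene of this mesenchyme, was not called. Among the 10 markers of the epithelium, 6 were lower and 0 higher, with a median of −0.68. The other 4, Epcam (0.02), Cldn7 (−0.06), Gata3 (−0.10) and Cldn4 (−0.12), were not called. Summed signals of the 10 were 90031 and 53677 in replicate 1 and 92123 and 63786 in replicate 2. Such sums weigh bright probes most, here those of Krt8 and Krt18. All 8 endothelial markers fell, with a median of −2.01 and summed signals of 25243 and 4638 in replicate 1 and 29916 and 8691 in replicate 2. No marker of these 3 lists was below background in every channel. Of kidney mesenchyme and stroma 1 of 8 tested markers rose and 3 fell, of Schwann cell precursors and neurons 3 of 7 fell, of macrophages 4 of 8 and of erythroid cells 3 of 6. The part of such shifts in the values of the R-spondin and receptor genes was not tested.

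**Figure D5:**
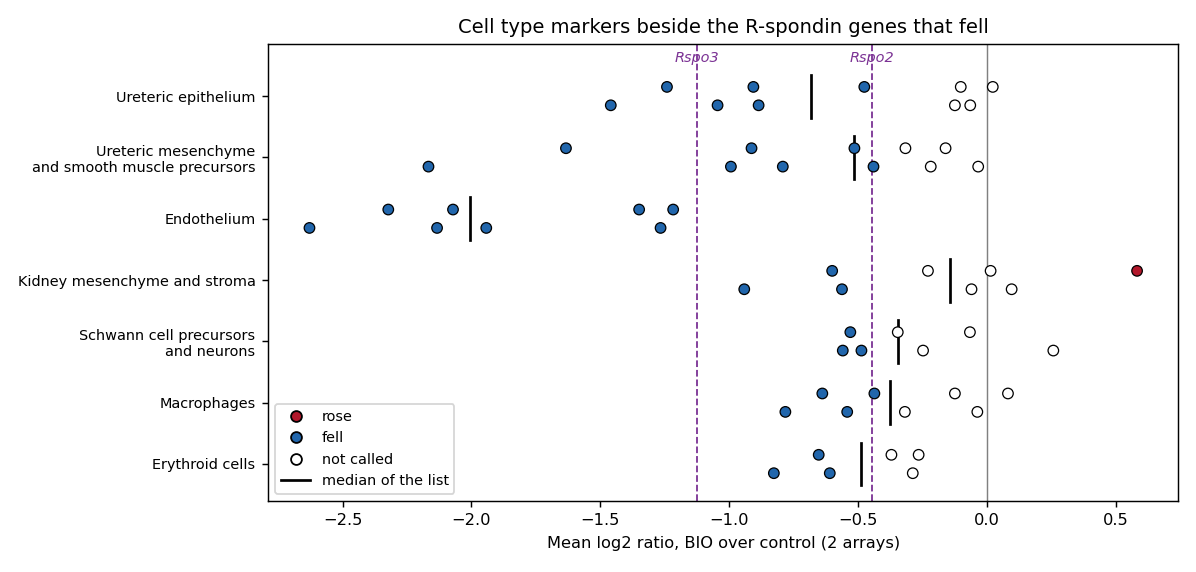
Mean log2 ratio of BIO over control (2 arrays) for the tested markers of 7 cell types, coloured by call, with a black line at each list's median and dashed lines at the mean ratios of Rspo3 (−1.12) and Rspo2 (−0.44). Endothelial markers all lie below Rspo3, and 1 marker of all 7 lists rose.

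The promoter sequences that could be matched were searched for the binding letters of TCF and LEF proteins, the DNA-binding partners of β-catenin. The search took CTTTGAT or CTTTGTT on either strand in RefSeq windows of 300 bases around gene starts (build GRCm38.p6). Of 32851 windows 9.33% held a match. Windows were at hand for 5 of the 8 genes, Rspo1, Rspo4, Lgr4, Lgr6 and Tnfrsf19, the last with 2 starts. In these 6 windows 1 match was found, at a start of Tnfrsf19, and it is shown because this gene rose most. The 250 bases before this start, chr14:61037988-61038237 on the minus strand, read as follows, with the match in capitals, beginning 202 bases before the start.
Tnfrsf19 promoter: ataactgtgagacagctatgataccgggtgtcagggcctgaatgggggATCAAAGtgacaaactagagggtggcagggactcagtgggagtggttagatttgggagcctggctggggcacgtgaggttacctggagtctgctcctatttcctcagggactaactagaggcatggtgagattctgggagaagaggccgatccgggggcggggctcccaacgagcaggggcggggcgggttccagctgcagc
The match is a description of the letters in this window and was not measured as a binding site.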

How the data were processed

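Per the file headers, the authors quantified 2-color Agilent arrays with Agilent Feature Extraction 10.7.3.1. The 2 arrays shared 1 slide and 1 scan, so neither can act as a batch. The deposited scanner tables hold the mean intensity of each spot and the median intensity of its local background, both without normalization, and processed intensities, which Feature Extraction had background-subtracted and dye-normalized. The deposited series table holds a score per probe, not described in the sources used here, rounded to 1 decimal and never between −1 and 1. It followed the signed fold of the processed signals, BIO over control (Spearman's rho 0.963 and 0.955 across probes), with a median of 1 on each array. Its scale and centring are not stated.

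With limma 3.58.1 in R 4.3.3, intensities were corrected by normexp (offset 50) and normalized by loess within each array. Control spots and outlier spots (3.49% and 3.16%) had weight 0, and 0 spots were saturated. The 4 spots of a probe were averaged and the ratio of replicate 2 was turned, so that every ratio is BIO over control. A probe was tested if more than 0.5 of its spots were well above background in one RNA on both arrays. lmFit and eBayes tested the mean of the 2 ratios against 0 on the log2 scale. A dye term would leave no residual degree of freedom. Only 2 arrays limit the precision, and the median moderated SE was 0.11. The brightest probe stood for a gene. Probes were named by accession (28328), symbol (3400) or synonym (243) through RefSeq genes of GRCm38.p6, and 7458 kept the name in the files.

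The members and lists were chosen with earlier results of these data known. Named were all 8 members with every probe, at most the 3 largest rises and falls of each list (all genes of lists of up to 6, as far as tested), and the 3 genes nearest to each member with a mean log2 ratio beyond 1 in size. Marker genes named beside them, Tnfsf11, Olfm4, Tbx18 and the receptors that were not called were picked after their values were seen. Alternatives were processed signals (floor of 15), offset 16, median centring, no filter on dim probes, the mean of all kept probes, the score table, leaving out an array, and other folds and intensities for the rule.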

Additional observations from a re-analysis of the deposited data

How the results depend on the processing

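Tnfrsf19 and Lgr5 rose under all 6 alternatives with a test. Lgr4 stayed positive and not called, at 0.18 to 0.26. Rspo1 turned to 0.074 with processed signals and 0.058 with the score table, and was not called there. Rspo2 was not called with processed signals (−0.62), median centring (−0.50) or the score table (−0.61), nor Rspo3 with the score table (−1.13). The 2 members that fell became 1 with processed signals, 1 with median centring and 0 with the score table, and the 5154 genes changed became 1923, 2766 and 3248. For the cause of these changes no test was made. With processed signals, the genes changed numbered 0 of the other binding partners (3 as reported), 1 of the intestinal stem cell genes (6), 4 of the TNF receptor relatives (9) and 1 of the hormone receptors (2). With the score table they numbered 0, 1, 2 and 0, beside 2 of the Nogo receptor complex (1) and 2 of the WNT targets (6). Median centring gave 2 of the stem cell genes and 1 hormone receptor, and no filter on dim probes 1 hormone receptor. Without the filter, Rspo4 and Lgr6 were not called (limma adjusted p = 0.541 and 0.202). Values without one array are those of the other array, from 3.15 to 3.26 for Tnfrsf19, 2.05 to 2.13 for Lgr5, 0.07 to 0.35 for Lgr4, −0.33 to 0.32 for Rspo1, −0.54 to −0.35 for Rspo2 and −1.25 to −0.995 for Rspo3, with no test. No paired analysis was possible because each array already holds its own pair of RNAs and there is 1 group of ratios. Signal over background limits Rspo4, Lgr6 and the second Lgr5 probe.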
